A study of Mus musculus with 2 samples.

Results

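Gm30097 and Gm16548 are mouse long non-coding RNA (lncRNA) genes that lie opposite genes of blood coagulation, Gm30097 opposite the fibrinogen gamma chain gene Fgg and Gm16548 opposite the coagulation factor V gene F5 and the P-selectin gene Selp. They are 2 of the 614 lncRNAs of the known-lncRNA table and were taken by their Ensembl identifiers, ENSMUSG00000102595 and ENSMUSG00000086593. The members were chosen by their position opposite coagulation genes, with their measured shares of the table and ratios between the libraries already in view, so those values are a description and carry no test. The table comes from liver RNA of wildtype C57BL/6 mice at postnatal week 27, with 1 library from a diet of 60% fat given for 23 weeks and 1 library from a normal diet. The labels name hepatocytes as the source, but the extraction protocol describes frozen liver, and the labels give no number of animals per library. With 1 library per diet no difference has a replicate check, and every interval covers counting error only. The libraries stand for themselves and not for the diets.

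Fibrinogen is a plasma protein made by hepatocytes from the products of 3 neighbouring genes, Fga, Fgb and Fgg, and thrombin cuts it to form the fibrin of a clot. Factor V, also made by hepatocytes, is the cofactor of factor Xa in the complex that activates prothrombin. P-selectin is an adhesion molecule stored in platelets and endothelial cells and brought to their surface on activation. An antisense lncRNA is transcribed from the other strand of a gene, so where exons of both overlap, the sequences are exact reverse complements. Only a count that uses the strand of the reads can separate the RNAs there.

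Positions are those of GENCODE M21 on GRCm38, looked up by identifier. The table holds no coordinates, and mm8 is the build in the submitters' processing notes. Gm30097 (chromosome 3, 82926665 to 83008488, minus strand) spans 81824 bases, with 768 exon bases in 2 annotated transcripts. The first exon of the transcript Gm30097-201 has 135 bases, of which 115 lie opposite exon 3 of Fgg, at 83008374 to 83008488, and 20 opposite an intron. All 115 are coding sequence of Fgg and match positions 305 to 419 of its mRNA of 1695 bases. The other transcript, Gm30097-202, begins farther from Fgg and shares no exon base with it. The first exon is shown 5′ to 3′, with the bases opposite Fgg coding sequence in capitals, and beside it the stretch of Fgg mRNA that it faces. Both come from GENCODE M21 and are shown because reads of either RNA from this stretch differ only in strand.
Gm30097-201: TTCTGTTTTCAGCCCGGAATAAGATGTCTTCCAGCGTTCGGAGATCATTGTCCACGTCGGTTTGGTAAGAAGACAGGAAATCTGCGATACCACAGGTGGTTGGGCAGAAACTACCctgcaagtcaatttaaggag
Fgg mRNA: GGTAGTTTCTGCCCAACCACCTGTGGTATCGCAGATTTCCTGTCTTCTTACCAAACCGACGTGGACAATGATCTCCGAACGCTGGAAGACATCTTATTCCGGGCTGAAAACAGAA

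Gm16548 (chromosome 1, 164148591 to 164152217, minus strand) is compact, with 3 exons of 1226 bases in all within 3627 bases. Its first exon of 359 bases covers 262 bases of exon 1 of F5, at 164151859 to 164152120, of which 158 are coding and 104 untranslated. The other exons, 2 and 3, cover 325 and 113 bases of the last exon of Selp, exon 16, all of it untranslated. In total 700 of the 1226 exon bases (57.1%) lie opposite exons of coding genes, against 115 of 768 (15.0%) for Gm30097. The start of the transcript is shown as far as it faces F5 coding sequence, again in capitals. It ends in CAT, the reverse complement of the F5 start codon ATG.
Gm16548-201: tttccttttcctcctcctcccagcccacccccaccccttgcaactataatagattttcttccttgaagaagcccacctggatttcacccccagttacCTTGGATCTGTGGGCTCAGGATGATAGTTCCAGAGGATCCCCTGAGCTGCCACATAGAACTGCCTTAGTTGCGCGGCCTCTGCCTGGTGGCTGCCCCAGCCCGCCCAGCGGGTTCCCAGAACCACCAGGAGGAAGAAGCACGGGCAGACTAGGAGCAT

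Gm30097-201 and Gm16548-201 begin inside a coagulation gene on the other strand and run out over its start. The annotated 5′ end of Gm30097-201 lies 764 bases inside Fgg, and that of Gm16548 lies 379 bases inside F5. Gm30097-202 begins at 82995585, upstream of the Fgg start, and does not cross it. The table gives 1 value per gene, so the reads of Gm30097 cannot be assigned to either transcript. Although their exons overlap coding exons, GENCODE M21 gives both the type lincRNA. Apart from Fgg, F5 and Selp, no annotated transcript of another gene matched either lncRNA over at least 50 bases at 95% identity or more.

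**Figure D1:**
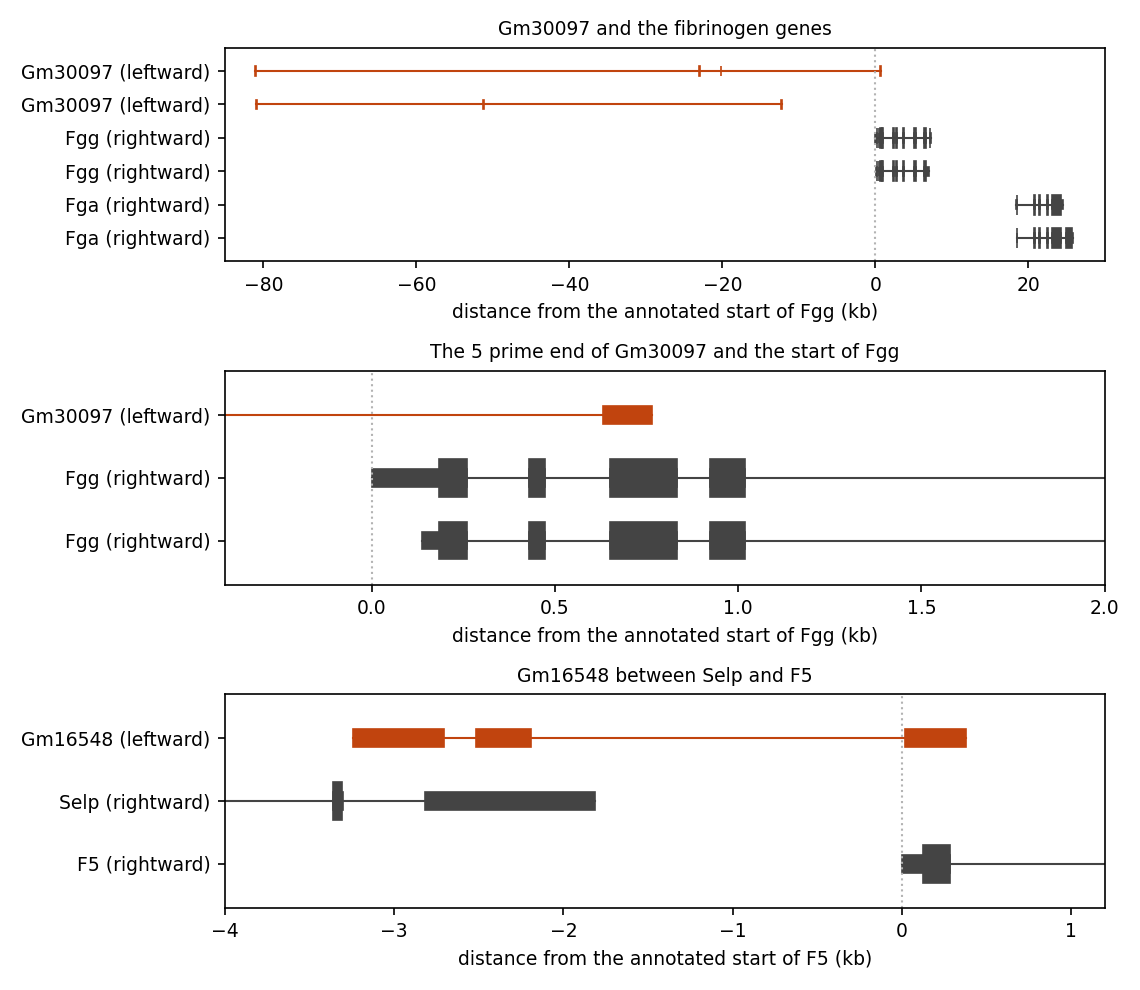
Annotated transcripts at both loci, with distance from the start of Fgg or F5 in kb on the x axis. Thin boxes are exons, tall boxes coding sequence and lines introns, red for the lncRNAs and grey for coding genes. The 5′ end of Gm30097-201 lies 764 bases inside Fgg and that of Gm16548 379 bases inside F5, and the last 2 exons of Gm16548 face the end of Selp.

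Gm30097 had the most reads of all lncRNAs of the table in both libraries. Its reads numbered 21208 with the high fat diet and 23656 with the normal diet, or 109581 and 97674 CPM (here, counts per 1000000 reads of the lncRNA table). Read numbers came in multiples of 2, so counting intervals were computed on pairs. Its share of the table was 10.96% (95% Clopper-Pearson interval 10.76 to 11.16) with the high fat diet and 9.77% (9.60 to 9.94) with the normal diet. The share was thus 1.19 percentage points larger in the high fat diet library, and the counting intervals did not overlap. This is not particular to Gm30097, as it also held for the lncRNAs next in reads, Gm26809 and 1810014B01Rik. Gm26809 held 8.13% (7.96 to 8.30) with the high fat diet and 9.41% (9.25 to 9.58) with the normal diet. For 1810014B01Rik it was 9.97% (9.78 to 10.16) and 6.32% (6.19 to 6.46). Whether the share of Gm30097 differs by as much among animals on one diet was not tested.

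Gm16548 had 2000 reads with the high fat diet and 2600 with the normal diet, or 10334 and 10735 CPM. Its share was 1.03% (0.97 to 1.10) and 1.07% (1.02 to 1.13), and these intervals overlapped. By reads, not corrected for length, it ranked 16 with the high fat diet and 14 with the normal diet. Its neighbours in that order, named after their values were seen, had intervals that overlapped its own. In the high fat diet library these were Gm26882 with 2102 reads and Gm26631 with 1982, and with the normal diet Gm16984 with 2712 and Gm17275 with 2368.

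**Figure D2:**
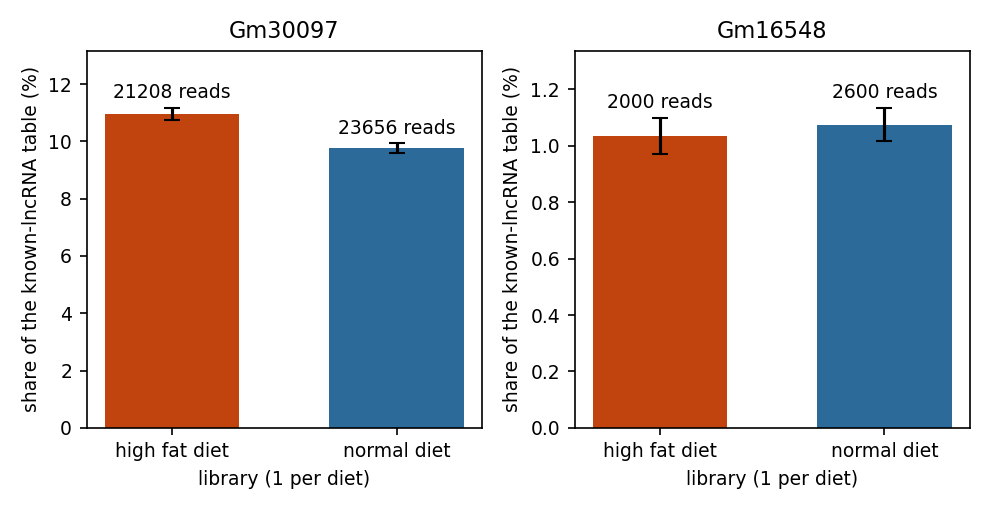
Share of the known-lncRNA table in percent (y axis) held by Gm30097 and by Gm16548 in the library of each diet (x axis). Bars are the single libraries, error bars the 95% Clopper-Pearson interval, and labels the reads. Gm30097 held 10.96% and 9.77%, and Gm16548 held 1.03% and 1.07%.

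Per exon length the distance of Gm30097 from the rest was wider. Its level was 142683 CPM per exon kb in the high fat diet library and 127179 in the normal diet library. Next came 1810014B01Rik, annotated as a transcribed pseudogene that shares exon bases with the chaperone gene Hsp90b1, in the high fat diet library. In the normal diet library it was Gm26697, named after its values were seen, which shares exon bases with the fatty acid transport gene Slc27a2. Gm30097 stood 3.79-fold above the former and 3.03-fold above the latter. Gm16548 ranked 12 and 11 on this scale, with 8429 and 8756 CPM per exon kb. The median lncRNA had 86.6 and 81.7 CPM per exon kb, so Gm16548 lay 97.3-fold and 107-fold above it. These levels use all annotated exons of a gene, and the table does not say where along them the reads fell.

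**Figure D3:**
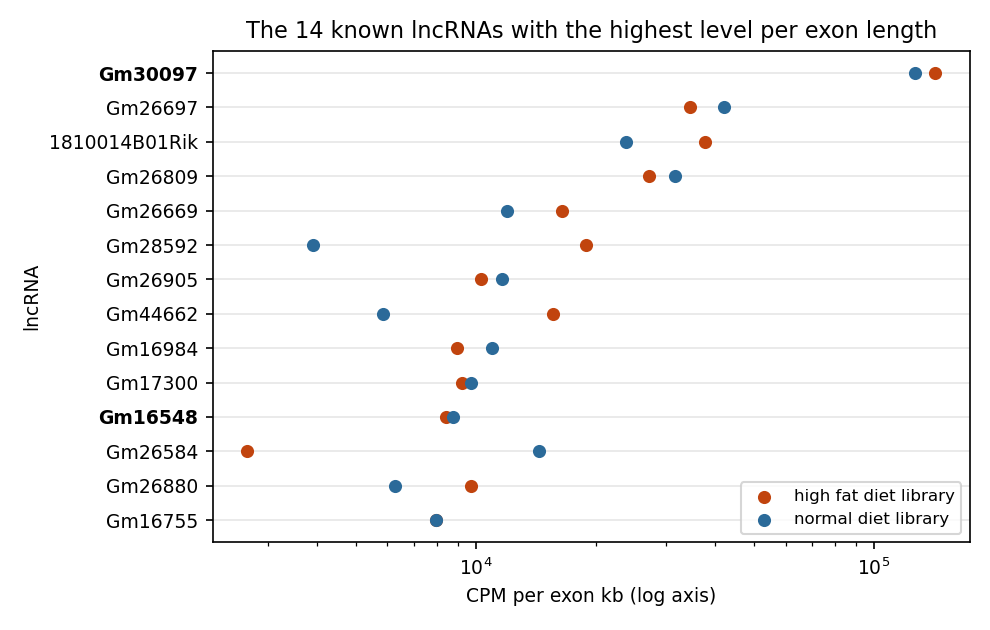
The 14 known lncRNAs with the highest mean level per exon length, in CPM per exon kb on a log x axis, with 1 point for each diet library. Gm30097 stands above the others in both libraries, at 142683 and 127179, and Gm16548 lies at 8429 and 8756 with its points side by side.

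As a ratio of the high fat diet to the normal diet library, Gm30097 had a log2 value of 0.17 (95% interval 0.13 to 0.20), or 1.12-fold. Gm16548 had a log2 ratio of -0.05 (-0.18 to 0.07), or 0.963-fold. The authors' deposited table gives fold changes of 1.12 and 0.963 and marks neither as significant. Neither reached the 2-fold difference used as a call, which also asks for at least 20 reads in the higher library. Of the 364 lncRNAs with that many reads, 58 (15.9%) were called, 28 higher (7.69%) and 30 lower (8.24%) with the high fat diet. The members were chosen with these ratios known, so nothing is read from their 0 calls of 2. Of the 364 lncRNAs, 34 had a log2 ratio smaller in size than that of Gm16548 and 87 one smaller than that of Gm30097. Among the 43 lncRNAs that reach 1000 reads in either library these numbers were 8 and 18. The direction for Gm30097 was the same under every scaling tried, while that of Gm16548 changed to 0.04 when only lncRNAs without coding exon overlap were used as the total.

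**Figure D4:**
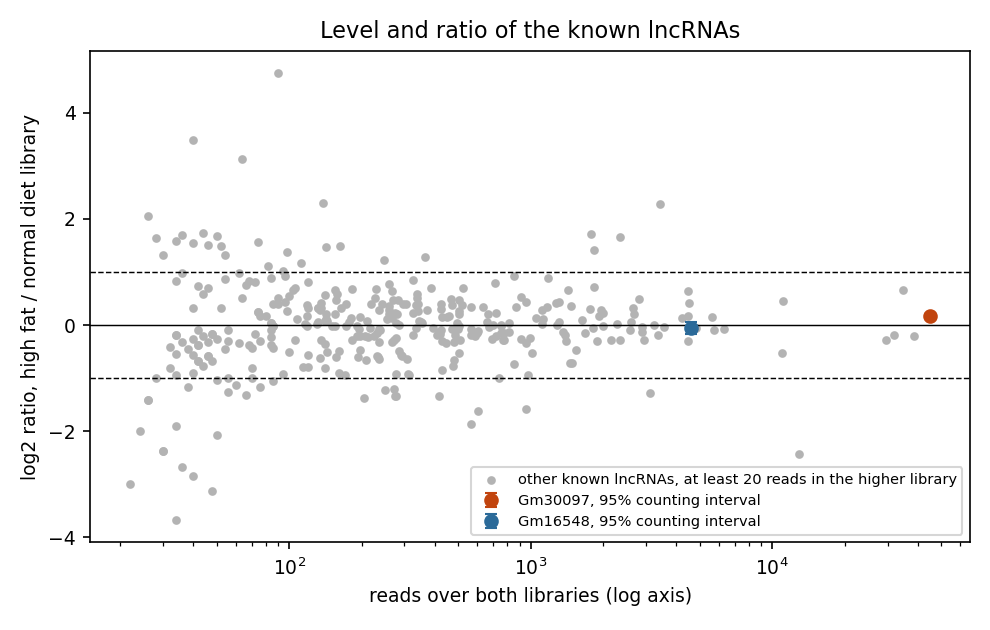
Log2 ratio of the high fat diet to the normal diet library (y axis) against reads over both libraries (log x axis) for the 364 known lncRNAs that reach 20 reads in either library. Error bars on both coloured points are 95% counting intervals, and dashed lines mark 2-fold. Gm30097 lies at the far right at 0.17 and Gm16548 at -0.05, both well inside the 2-fold lines.

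A ratio of the members within a library does not depend on the total to which the table was scaled. Gm30097 had 10.60 read pairs for each pair of Gm16548 in the high fat diet library (9.94 to 11.33) and 9.10 in the normal diet library (8.59 to 9.64). Per exon kb the ratio was 16.9 and 14.5. The ratio in the high fat diet library was 1.17 times that in the normal diet library (counting interval 1.07 to 1.27), a description of the same reads with which the members were chosen. Whether the proportion differs between diets was not tested, as each has 1 library.

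In reads, the lncRNAs next below Gm30097 were Gm26809, which shares no exon base with coding genes, and 1810014B01Rik. Their log2 ratios, -0.21 (-0.25 to -0.17) and 0.66 (0.61 to 0.70), lay on either side of that of Gm30097 and outside its interval. Around Gm16548, ordered by reads over both libraries, stood Gm28268 and Gm26882 above, with log2 ratios of 0.15 and -0.05, and Gm26582 and Gm26880 below, with 0.41 and 0.63. Lying closest in log2 ratio to Gm30097, among lncRNAs with at least 1000 reads, were Gm17275, Gm26722 and Gm28268, at distances of up to 0.018 over 2 libraries. Closest to Gm16548 were Gm26882, Gm26883 and Gm26533, at distances of up to 0.0094. The genes they share exon bases with, such as H3f3a for Gm17275 and Morf4l1 for Gm26882, are not coagulation genes. Likeness over 2 libraries is 1 number per lncRNA.

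Other lncRNAs opposite genes of plasma proteins were sought with lists of 46 coagulation and fibrinolysis, 25 platelet and endothelial adhesion, 33 complement, 43 acute phase and 36 other plasma protein genes. Of 183 genes, 182 were found in GENCODE M21, and 20 annotated lncRNA genes shared at least 50 exon bases with them. Of these, 3 were analysed here, Gm30097, Gm16548 and Gm44662. For the coagulation list alone it was 2 of 4. The others, Gm30489 opposite F13a1 and Gm16144 opposite Anxa2, were not analysed here, nor was Gm16587 opposite Selp. Gm44662 (chromosome 7) shares 89 exon bases with Hamp2, a gene of the iron hormone hepcidin family that belongs to the acute phase list. In all, 163 of its exon bases are shared with Hamp2 or Usf2, and Usf2 is in none of the lists. Gm44662 had 1246 reads with the high fat diet and 582 with the normal diet, a log2 ratio of 1.42. It was the 1 called of the 3, beside 58 of 364 (15.9%) over all lncRNAs. From 3 lncRNAs nothing is read about the lists. The median log2 ratio of the 3 was 0.17, beside -0.01 over the 364.

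**Figure D5:**
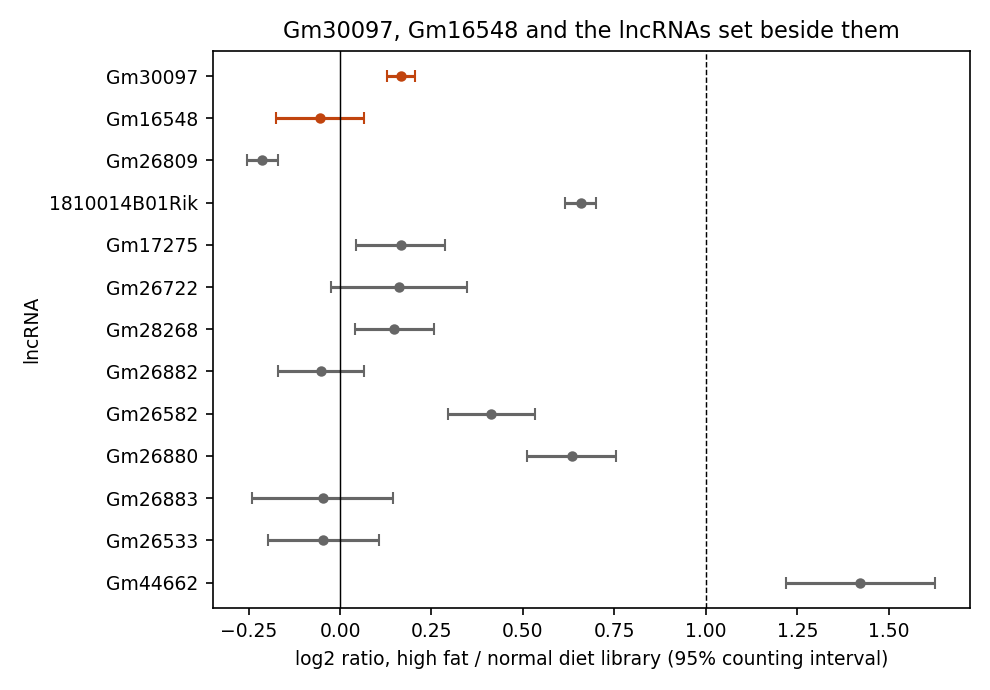
Log2 ratio of the high fat diet to the normal diet library (x axis) with 95% counting intervals for Gm30097 and Gm16548 (red) and for the lncRNAs nearest to them in reads or in ratio and Gm44662 (grey). The dashed line marks 2-fold. Gm30097 lies at 0.17 and Gm16548 at -0.05, and Gm44662, at 1.42, lies beyond the dashed line.

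Where exons overlap, the reads of these lncRNAs cannot be told apart from those of the coding genes unless the counting used strand, a setting not given in the sources used here. Fgg, F5 and Selp themselves were not analysed here. The 218 lncRNAs that share at least 50 bases with coding exons held 65.7% of the table in the high fat diet library and 63.4% in the normal diet library. Gm30097 made up 16.7% and 15.4% of the reads of that set, and Gm16548 1.57% and 1.69%. Measured against the total of this set the log2 ratio of Gm30097 was 0.11, and against the total of lncRNAs that share no base with coding exons it was 0.26. In the overlap set 11 of 177 lncRNAs with enough reads were called higher and 9 lower (11.3%), beside 15.9% of all 364. It was 16 higher and 19 lower of 175 (20%) among those that share no exon base with coding genes.

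The table lists lncRNAs, so the tissue could be checked only on lncRNA markers. Of 12 hepatocyte lncRNAs 4 were analysed, and together they had 136 reads with the high fat diet and 206 with the normal diet, or 703 and 851 CPM. Their directions differed. Gm10804 had 66 and 126 reads, a log2 ratio of -0.61, and C730036E19Rik 60 and 60, a log2 ratio of 0.32. The others, 1810008I18Rik with 8 and 16 reads and Platr4 with 2 and 4, were under the minimum of 20 reads. Of 14 markers of other liver cells, a list that includes the coding gene Gm2a, 3 were analysed, with 72 and 92 reads in all, or 372 and 380 CPM. Within that sum Gm12840 had 46 and 88 reads, while Mir155hg had 8 and 2 and Pvt1 18 and 2, the latter pair under the minimum of 20 reads. The remaining markers, Mir122hg, H19 and Meg3 among them, were not analysed here, so neither cell type was established by its markers. In RNA of whole tissue, fewer cells of a type and less RNA per cell cannot be told apart. The part of cell composition in the ratios of Gm30097 and Gm16548 was not tested.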

How the data were processed

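The deposited table of known lncRNAs lists both libraries side by side. Its values, named normalized per the file headers, behave as CPM within the table: the listed values sum to 998600 and 998427. The authors also deposited a fold, the CPM with the high fat diet over that with the normal diet, and its log2 value. The deposited p-values and adjusted p-values were not used. HISAT2, HTSeq, DESeq and the build mm8 are named in the submitters' processing notes. Versions, annotation and strand use, not given in the sources used here, could affect every lncRNA that overlaps another gene.

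The smallest value of each column, 5.17 and 4.13 CPM, was taken as 1 read and each CPM divided by it. All values (100%) were whole to within 1e-06, and every number above 1 was even, so intervals were computed on read pairs and a value of 1 was taken as 0 pairs. The scaling totals were 193538 and 242194 reads, while total library depth is unknown. A count test was not run, since each diet has 1 library. A call needed a 2-fold difference of the CPM and 20 reads in the higher library, with a floor of 3 pairs for a value of 0. Shares and log2 ratios have exact 95% intervals (scipy 1.17.1). Of the 614 identifiers, 606 matched GENCODE M21, and the names come from it. The 8 without an entry have no known position and were counted as sharing no exon base. By their types, 5 entries are protein coding, 2 transcribed unprocessed pseudogenes and 1 a transcribed unitary pseudogene. All 614 entries are called lncRNAs here. Exon overlap was counted from 50 bases, on either strand. Near-identical stretches were sought for the members only, with BLAST+ 2.17.0, and edgeR 4.0.16 gave TMM factors for an alternative scaling. The scripts were tested on simulated data.

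The members, gene lists and alternatives were chosen with earlier results of these data known. Named lncRNAs are the members, lncRNAs that share at least 50 exon bases with a listed gene, the 2 next above and below each member in reads, and the 3 nearest in log2 ratio with at least 1000 reads. The markers are named from their lists. Gm26697, Gm26631 and Gm16984 fall outside this rule and were named after their values were seen. The table of numbered lncRNAs was not used.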

Additional observations from a re-analysis of the deposited data

How the results depend on the processing

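Shares depend on the total. Without the 5 most abundant lncRNAs in the total, Gm30097 came to 18.9% (high fat diet) and 16.5% (normal diet) and Gm16548 to 1.78% and 1.81%. Against lncRNAs that share at least 50 bases with coding exons, Gm30097 came to 16.7% and 15.4% and Gm16548 to 1.57% and 1.69%. With the total of lncRNAs that share no base with coding exons, the log2 ratio of Gm30097 was 0.26, and with the total of those sharing at least 50 bases, a setting chosen after seeing the data, it was 0.11. The log2 ratio of Gm16548 ranged from -0.11 to 0.04 over all settings, within its interval. All other settings for Gm30097 (median of ratios, TMM, the total without the lncRNA itself or without the 5 most abundant, 1 or 5 reads added, the deposited fold change) stayed within the counting interval. Gm30097 per Gm16548 was 16.9 and 14.5 per exon kb and 8.54 and 7.33 per kb of exon outside coding exons. In the latter only the length was restricted, and all read pairs were kept, as their positions are unknown. By construction, these shifts come from the changed total or length. The known lncRNAs called, 28 higher and 30 lower, numbered 58 and 66 at 1.5-fold, 6 and 9 at 4-fold, 78 and 64 without a minimum, and 8 and 11 with 100 reads. Of lncRNAs at plasma protein genes, 1 was left and 0 called with an overlap of 200 bases. Intervals on single reads in place of pairs were narrower, 10.8% to 11.1% for Gm30097 in the high fat diet library. No paired analysis was possible because a diet is represented by a single library, and for the same reason none could be left out. Counting intervals do not include the spread between animals, which was not measured.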

Other observations

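The position of Gm30097-201 and Gm16548, with the 5′ end inside a coding gene on the other strand and the transcript running out over its start, was looked for in the whole table after their values had been seen. With the outermost annotated 5′ end of the lncRNA gene at most 1000 bases inside the coding gene, and at least 50 shared exon bases, 54 of 614 lncRNAs (8.79%) lie in this way. Gm30097 and Gm16548 had the most reads of the 54, summed over both libraries. Together they held 11.99% of the table in the high fat diet library and 10.8% in the normal diet library, against 4.33% and 3.78% for the other 52. Most of this was Gm30097, which alone held 10.96% and 9.77%. Gm16548 had 4600 reads over both libraries, close to the 4534 of Gm26582. In the high fat diet library Gm26582 had more, 2338 against 2000. The median of the other 52 was 41 and 28 reads. Of the 54, 31 had enough reads to be called, and 3 were higher and 2 lower (16.1%), beside 15.9% of all 364. The median log2 ratio of the 29 others with enough reads was 0.33, 19 of them above 0 and 10 below. Over all 364 it was -0.01, with 172 above 0 and 192 below. The set was formed after the values were seen, and many of its counting intervals include 0. No direction is read from it. Next in reads, and named for that after their values were seen, are Gm26582, opposite Cdkl2, with a log2 ratio of 0.41, and Gm26631, opposite Fam219b, with 0.13.

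Annotated starts were available from RefSeq (GRCm38.p6) for Fgg, F5, Selp and Gm30097. The 250 bases upstream were searched on both strands for TATAAA (the motif bound by TBP), TTCNNNGAA (STAT), TTGCNNAA (C/EBP), GGGCGG (GC box) and the HNF1 palindrome. They occur in 12.4%, 7.02%, 9.56%, 32.7% and 0.0091% of 32851 such windows. F5 holds a GC box 177 bases upstream. Of the 2 starts of Gm30097, the one inside Fgg holds a C/EBP match 202 bases upstream, within the Fgg gene. Both RefSeq starts of Gm30097 differ from the GENCODE M21 5′ ends given above, and the distance is counted from the RefSeq start. The windows of Fgg and Selp hold none of these letters.

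The transcripts also differ in composition. The GC content of Gm16548 is 49.6% and its longest open reading frame from an ATG has 81 codons. The transcripts of Gm30097 have 46.3% and 58.7%, with longest frames of 14 and 18 codons.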
